A study of Mus musculus with 8 samples.

Results

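The 10 genes described here, Pdgfra, Dpp4, Pi16, Cd34, Ly6a, Ly6c1, Gsn, Clec3b, Cd248 and Thy1, are surface and marker genes of fat progenitors and of the fibroblasts of adipose tissue. They were chosen by gene symbol from the deposited table of 56953 genes, and all 10 were found in it once. They were measured by RNA sequencing in brown adipose tissue (BAT) of 8 wild-type C57BL/6J mice, 8 to 10 weeks old at injection. The 4 cachectic mice (CAC) had received 3000000 Lewis lung carcinoma (LLC) cells under the skin of the right flank, a tumour model in which mice lose weight. The 4 control mice (CTR) had received PBS alone. Mice were monitored for 21 days, and per the study's methods only injected mice that developed a tumour were included. The labels name the mice as male or female without assigning a sex to a library. The Y-linked gene Ddx3y had 115 to 303 counts in every library and Xist had at most 1. The question addressed is whether genes that mark progenitors and fibroblasts of BAT differ in level between CAC and CTR.

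Adipocytes arise from mesenchymal progenitors that lie in the connective tissue and along the vessels of the depot. These cells carry the platelet-derived growth factor (PDGF) receptor alpha, encoded by Pdgfra, together with CD34 and SCA-1, the product of Ly6a. In white adipose tissue, Dpp4 and Pi16 mark an early, interstitial population that can give rise to preadipocytes closer to differentiation. None of the genes belongs to progenitors alone. Cd34, Ly6a and Ly6c1 are also read in endothelium, Ly6c1 and Ly6a in leukocytes, and Thy1 in T cells and neurons.

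The libraries held 2454493 to 4827956 counts in CTR and 1823167 to 3392538 in CAC. Levels are given as CPM, counts divided by library size as scaled with edgeR's trimmed mean of M values (TMM), and 3 counts, the limit that a count of 0 allows, equalled 0.66 to 1.62 CPM. This limit covers counting error only. The tissue label was checked with 12 brown adipocyte genes, all of which were tested. Their summed level was 16418 to 18477 CPM in CTR and 16116 to 18323 CPM in CAC, with Ucp1 at 3804 to 4210 and 3590 to 4932 CPM. The summed level of 11 neutrophil genes was 12.0 to 15.2 CPM in CTR and 176 to 449 CPM in CAC. Most of it in CAC was S100a8 and S100a9, with means of 175 and 73.5 CPM beside 281 CPM for the sum. The paper proposes that secreted S100A9 of CAC BAT comes mostly from brown adipocytes. It reports no significant difference in the number of neutrophils or of CD45+ cells, the leukocytes. Its S100A9 staining in endothelial cells, fibroblasts and neutrophils did not differ between the groups. The summed level of 10 skeletal muscle genes was 1231 to 3043 CPM in CTR and 2650 to 4957 CPM in CAC. The globin gene Hba-a1 lay at 2676 to 8156 CPM in CTR and 6577 to 20265 CPM in CAC. The part of these cells in the results below was not tested unless a value is given.

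In BAT of CAC mice, 2 of the members, Ly6a and Ly6c1, rose, and no member fell. Both encode small proteins of the Ly6 family that are held at the cell surface by a lipid anchor. Of the 10 members, 9 passed the filter on low counts and Dpp4 did not. The rise of 2 members stands against 0.932% of the 9876 genes tested that passed an edgeR adjusted p of 0.05 in either direction, and 0.739% that passed it and were higher. With an unadjusted p under 0.05 there were 3 members, Ly6a, Ly6c1 and Cd34, all higher in CAC, where 12.9% of all genes tested reached that p and 7.01% did so with a higher level. In the same 3 genes the lowest CAC library exceeded the highest CTR library, a separation found in either direction in 7.04% of all genes tested and upwards in 3.64%. In the other direction 0.192% of all genes passed the adjusted p, and no member did. The 6 other members tested had log2 fold changes of CAC over CTR (log2FC) between -0.31 and 0.21. The median over the 9 tested members was 0.14, beside -0.00 over all genes tested. The members' median was 0.084 without CTR replicate 1, 0.22 without CTR replicate 2, 0.024 without CAC replicate 3 and 0.023 in limma on the deposited normalized values.

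**Figure D1:**
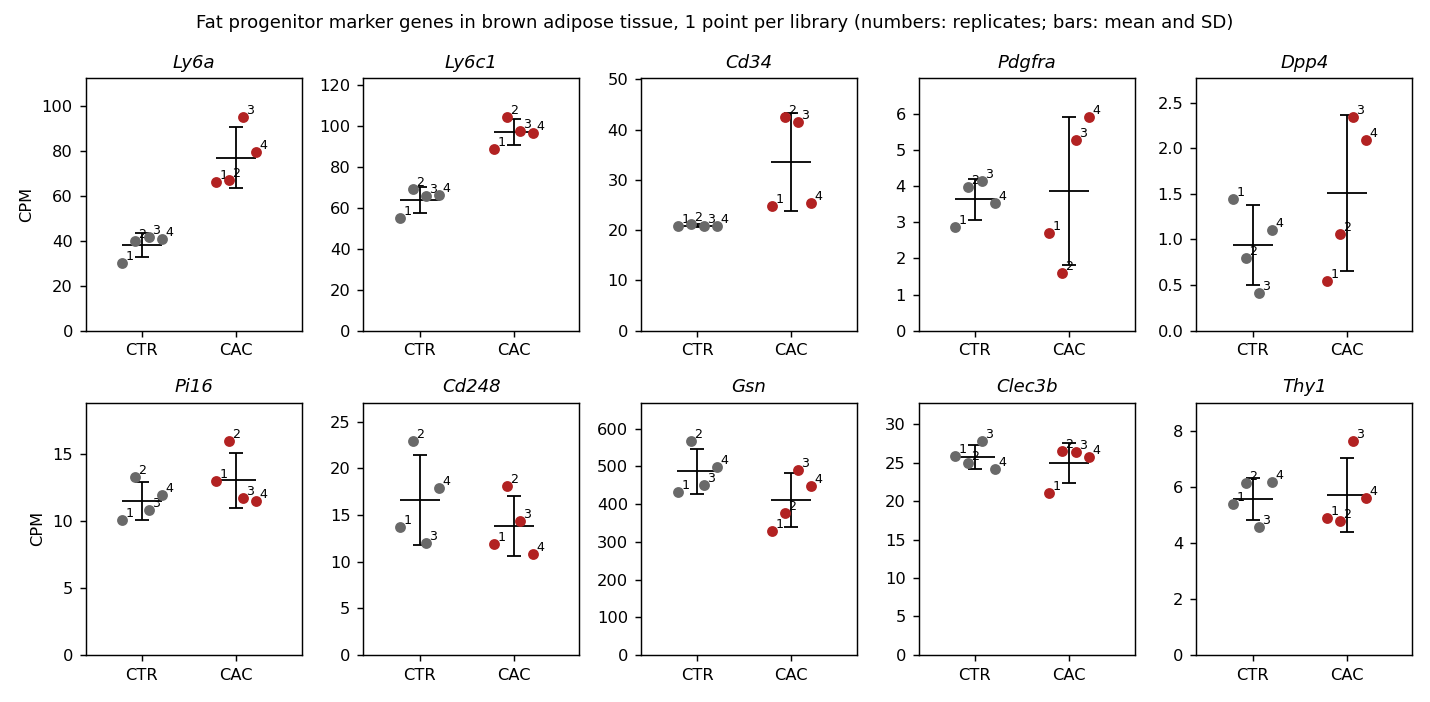
Level of each member in CPM (TMM scale, vertical axis from 0) in every CTR and CAC library. Points are libraries with their replicate number, and the horizontal and vertical bars are the group mean and SD (n = 4). Ly6a, Ly6c1 and Cd34 show no overlap between the groups, and the other 7 genes do.

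Ly6a (ENSMUSG00000075602.11, protein coding, chr15:74994877-74998031 of GRCm38, minus strand) encodes SCA-1, the antigen by which progenitors of mouse fat are commonly sorted. Its level was 30.2, 39.9, 41.5 and 40.6 CPM in CTR replicates 1 to 4, and 65.9, 67.0, 94.9 and 79.5 CPM in CAC replicates 1 to 4. All CAC libraries were thus above all CTR libraries, CAC replicate 3 was the highest and CTR replicate 1 the lowest. The means were 38.1 ± 5.26 CPM in CTR and 76.8 ± 13.5 CPM in CAC (mean ± SD, n = 4). The rise was 2.03-fold (95% interval 1.66 to 2.48), log2FC 1.02 (standard error 0.14, edgeR adjusted p = 0.000238). By p value Ly6a stood at place 11 of the 9876 genes. An exact two-sided permutation test of the CPM values gave p = 0.0286, the smallest that 4 against 4 libraries allow. In bulk tissue, a change in the number of cells that carry a transcript and a change in transcript per cell cannot be told apart, which holds for every member.

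Ly6c1 (ENSMUSG00000079018.11, protein coding, chr15:75044018-75048830, minus strand) lies in the same cluster of Ly6 genes and encodes a Ly-6C antigen, known from endothelium and leukocytes. It read 54.7, 69.2, 65.6 and 66.1 CPM in CTR and 88.7, 104.2, 97.3 and 96.6 CPM in CAC. The groups did not overlap, and their spreads were alike, with SDs of 6.35 and 6.37 CPM around means of 63.9 and 96.7 CPM (n = 4). Ly6c1 rose 1.51-fold (95% interval 1.28 to 1.77), log2FC 0.59 (SE 0.11, edgeR adjusted p = 0.00998). Without CTR replicate 1, the lowest library, the log2FC was 0.53 and the edgeR adjusted p was 0.0596.

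Ly6a, Ly6c1 and the neighbouring monocyte gene Ly6c2 are near copies of each other. The likeness of these genes is shown at the ends of their coding sequences. They are the last 150 coding bases in GENCODE M21 transcripts, all within the last coding exon and written 5′ to 3′ on the minus strand of GRCm38, at chr15:74995265-74995414 for Ly6a, chr15:75045405-75045554 for Ly6c1 and chr15:75108546-75108695 for Ly6c2. Capitals in Ly6a mark the longest run shared with Ly6c1, of 48 bases, and capitals in Ly6c1 and Ly6c2 mark the 3 bases at which those genes differ in this stretch.
Ly6a: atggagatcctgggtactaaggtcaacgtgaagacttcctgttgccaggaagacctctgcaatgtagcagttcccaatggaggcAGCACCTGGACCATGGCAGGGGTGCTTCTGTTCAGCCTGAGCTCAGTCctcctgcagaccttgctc
Ly6c1: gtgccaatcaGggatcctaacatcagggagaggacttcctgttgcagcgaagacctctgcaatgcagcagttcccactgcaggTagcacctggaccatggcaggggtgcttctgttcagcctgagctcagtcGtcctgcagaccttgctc
Ly6c2: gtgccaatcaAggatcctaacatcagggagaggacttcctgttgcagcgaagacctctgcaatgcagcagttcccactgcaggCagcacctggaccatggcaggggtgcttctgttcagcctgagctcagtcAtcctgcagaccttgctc

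Over the whole coding sequence, Ly6a and Ly6c1 were identical at 82.6% of positions and differed at 59 aligned bases. Ly6c1 and Ly6c2 were identical at 384 of 393 bases, with a shared run of 188 bases, longer than the 75 cycles of a read. Over whole transcripts, 6.33% of the 75-base words of Ly6a also occurred in another gene, mostly Ly6c1, and 19% of those of Ly6c1 did, mostly in Ly6c2. Where along a transcript the reads fell cannot be told from the counts, so these shares are not shares of reads. The deposited counts hold fractions on Ly6a in 7 libraries and on Ly6c1 in 6. Such fractions come from reads that several genes share, and how many shared reads lie within the whole numbers cannot be told from the table. Ly6c2 itself had 2.5 to 6.5 counts in CTR and 4 to 14.5 in CAC and was too low for the test. With the counts of Ly6c1 and Ly6c2 summed, the log2FC was 0.61 (edgeR adjusted p = 0.00714).

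The rise was larger in Ly6a than in Ly6c1 within the same libraries. The log2 ratio of Ly6a to Ly6c1 counts was -0.87, -0.78, -0.67 and -0.70 in CTR and -0.43, -0.63, -0.04 and -0.28 in CAC. Every CAC ratio was above every CTR ratio. The mean ratio went from -0.75 ± 0.09 to -0.34 ± 0.25 (SD, n = 4), a difference of 0.41 (exact two-sided permutation p = 0.0286).

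Cd34 (ENSMUSG00000016494.10, protein coding, chr1:194938819-194961279, plus strand) encodes a sialomucin of progenitors and of endothelium. Its level was 20.9, 21.3, 20.7 and 20.7 CPM in CTR and 24.9, 42.5, 41.6 and 25.4 CPM in CAC. The groups did not overlap, but CAC fell into a lower pair, replicates 1 and 4, and a higher pair, replicates 2 and 3. The means were 20.9 ± 0.27 and 33.6 ± 9.78 CPM (SD, n = 4), log2FC 0.69 (SE 0.17, edgeR adjusted p = 0.0623). The difference thus missed the threshold over all genes, with an interval of 1.25-fold to 2.07-fold. It passed with no filter on low counts (adjusted p = 0.00404) and without CAC replicate 1 or CAC replicate 4 (adjusted p of 0.0230 and 0.0278, all from edgeR). The coefficient of variation in CTR was 1.29%, where counting alone would give 11.9%. In CAC it was 29.1%, beside 10.8% from counting. An antisense gene overlaps Cd34, and 1.04% of the 75-base words of Cd34 lie in it. The strand setting of the counting is not stated, so reads of the antisense gene cannot be told apart there.

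**Figure D2:**
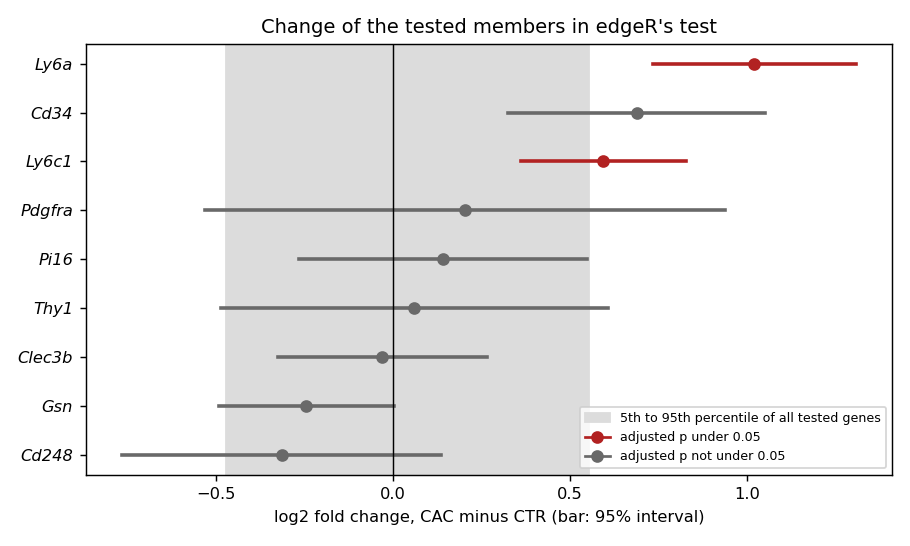
Log2 fold change of CAC minus CTR (horizontal axis) for the 9 tested members, with 95% intervals from edgeR's test. The grey band is the 5th to 95th percentile of all genes tested, from -0.47 to 0.55, and Ly6a, Cd34 and Ly6c1 lie above it.

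Of the genes that define the progenitor by convention, neither Pdgfra nor Pi16 differed by more than the spread between libraries, and both were read at low depth. Pdgfra (ENSMUSG00000029231.16, chr5:75152292-75198215, plus strand), the receptor tyrosine kinase for PDGF, had 8, 15, 10 and 16 counts in CTR and 5, 3, 18 and 17 in CAC. This is 2.88, 3.99, 4.15 and 3.53 CPM in CTR and 2.70, 1.60, 5.27 and 5.93 CPM in CAC. CAC replicates 3 and 4 were above every CTR library and replicates 1 and 2 below them. The means were 3.64 ± 0.57 and 3.87 ± 2.06 CPM (SD, n = 4), log2FC 0.21 with an interval from 0.69-fold to 1.92-fold (edgeR adjusted p = 0.867). The interval spans falls and rises alike. The coefficient of variation was 15.7% in CTR and 53.2% in CAC, where counting alone gives 28.6% and 30.5%. Over the fits without 1 library the log2FC lay between -0.036, without CAC replicate 4, and 0.41, without CAC replicate 2.

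Pi16 (ENSMUSG00000024011.18, chr17:29317680-29330593, plus strand), a peptidase inhibitor of the CRISP family, read 10.1, 13.3, 10.8 and 11.9 CPM in CTR and 13.0, 16.0, 11.7 and 11.5 CPM in CAC. The groups overlapped, with CAC replicate 2 highest. The log2FC was 0.14 (interval 0.83-fold to 1.46-fold, edgeR adjusted p = 0.826), and it was 0.084 without CTR replicate 1, 0.22 without CTR replicate 2 and 0.043 without CAC replicate 2. Dpp4 (ENSMUSG00000035000.9, chr2:62330073-62412231, minus strand), the exopeptidase known as CD26, had 4, 3, 1 and 5 counts in CTR and 1, 2, 8.5 and 6.5 in CAC. Its means of 0.94 ± 0.44 and 1.51 ± 0.85 CPM (SD, n = 4) lie at the level of 3 counts, and an exact two-sided permutation test gave p = 0.286. With 13 counts in CTR and 18 in CAC in all, a moderate difference in Dpp4 was not detectable. Antisense or provisional genes overlap Pdgfra, Dpp4 and Pi16 as well, and 4.05%, 2.52% and 2.38% of their 75-base words occur in other genes, mostly those.

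Cd248 (ENSMUSG00000056481.8, chr19:5068078-5070682, plus strand) encodes endosialin, a surface protein of fibroblasts and pericytes. It read 13.7, 22.9, 12.0 and 17.9 CPM in CTR and 11.9, 18.1, 14.4 and 10.8 CPM in CAC, with the highest value in CTR replicate 2 and the lowest in CAC replicate 4. Its log2FC was -0.31 (interval 0.59-fold to 1.10-fold, edgeR adjusted p = 0.579), and it was -0.12 without CTR replicate 2 and -0.20 without CAC replicate 4. Thy1 (ENSMUSG00000032011.6, chr9:44043384-44048579, plus strand), another lipid-anchored surface protein, ranged from 4.56 to 6.17 CPM in CTR and from 4.79 to 7.62 CPM in CAC. Its log2FC was 0.06 (interval 0.71-fold to 1.52-fold, edgeR adjusted p = 0.957), so neither a moderate rise nor a moderate fall was excluded by its interval. Without 1 library it lay between -0.14, without CAC replicate 3, and 0.13, without CAC replicate 2.

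Gsn and Clec3b, whose products are also secreted, did not pass the test. Gsn (ENSMUSG00000026879.15, chr2:35256380-35307892, plus strand) encodes gelsolin, which severs and caps actin filaments and also occurs in plasma. It had 608 to 2257 counts in a library. Its level was 431, 567, 451 and 498 CPM in CTR and 329, 375, 492 and 447 CPM in CAC. The groups overlapped, with CAC replicates 1 and 2 below all CTR libraries. The means were 487 ± 60.1 and 411 ± 72.7 CPM (SD, n = 4), log2FC -0.24 (SE 0.12, edgeR adjusted p = 0.396). The interval was 0.71-fold to 1.00-fold, and without CAC replicate 1 the log2FC was -0.15. Clec3b (ENSMUSG00000025784.6, chr9:123150946-123157432, plus strand) encodes tetranectin, a secreted C-type lectin that binds plasminogen. It read 25.9, 25.0, 27.8 and 24.3 CPM in CTR and 21.1, 26.6, 26.4 and 25.8 CPM in CAC. CAC replicate 1 was the lowest, and the other CAC libraries lay within the CTR range. The log2FC was -0.03 (edgeR adjusted p = 0.959), and its interval of 0.80-fold to 1.20-fold was the narrowest among the members that did not pass the test, apart from that of Gsn. Without 1 library its log2FC lay between -0.061, without CAC replicate 3, and 0.04, without CAC replicate 1.

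Across libraries the members did not move as a block. Ly6c1, Cd34 and Pi16 were highest in CAC replicate 2, Ly6a in CAC replicate 3, Gsn and Cd248 in CTR replicate 2, Clec3b in CTR replicate 3, Thy1 in CAC replicate 3 and Pdgfra in CAC replicate 4. The lowest library was CTR replicate 1 for Ly6a, Ly6c1 and Pi16, and CAC replicate 1 for Gsn and Clec3b. Pearson's r of log2 CPM over the 8 libraries was taken for all pairs of tested members, after the group means were taken out. The highest values were 0.83 for Pi16 and Cd248, 0.81 for Gsn and Thy1, 0.79 for Ly6a and Gsn, and 0.74 for Pdgfra and Ly6a. For Ly6a and Ly6c1 r was 0.57, and the lowest value was -0.63, for Pdgfra and Pi16. These values, mostly the extremes of all pairs, are a description over 8 libraries. The libraries differ in depth and in the levels of other cells' genes given above, and Pdgfra had only 3 to 18 counts in a library. Pdgfra, the defining receptor, was most like Fam234a, Tmco1 and Atp6v1h among all other genes tested, with r of 0.97, 0.96 and 0.95 over the 8 libraries. The gene at place 100 of this order still had an r of 0.82.

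**Figure D3:**
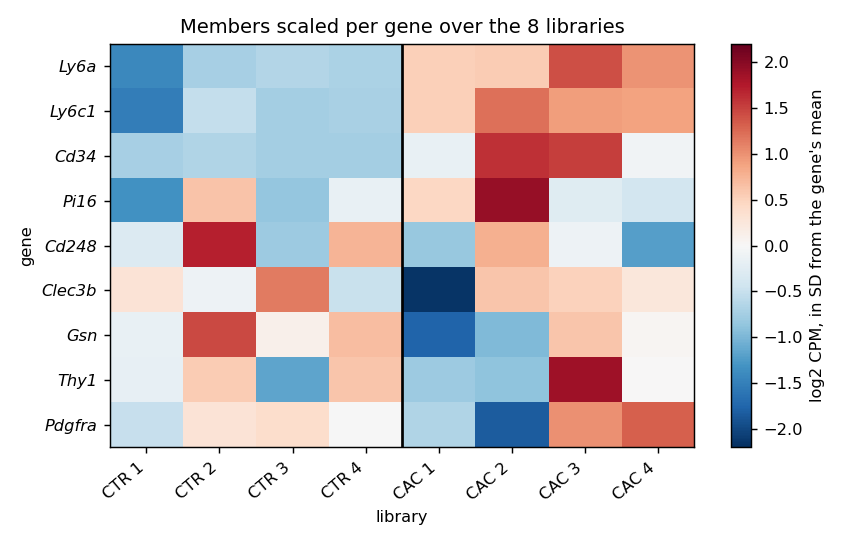
Log2 CPM of the 9 tested members (rows) in each library (columns), as SD from the gene's mean over the 8 libraries. Red is above and blue below that mean. Ly6a, Ly6c1 and Cd34 are below their mean in every CTR library, while the other members split within both groups.

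Other genes of the progenitor states were counted from lists written from general knowledge, with earlier results of these data known. Of 14 further interstitial progenitor genes, 6 were tested and none reached an edgeR p of 0.05 even before adjustment. Their log2FC values ran from -0.38 to 0.20 with a median of 0.01. The smallest p values belonged to Fn1, Mfap5 and Fbn1, with log2FC values of -0.38, -0.14 and 0.16. Fn1 encodes fibronectin, and the other genes encode parts of the elastic microfibrils.

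Of 20 committed preadipocyte genes, 14 were tested and Apod alone rose. Apod (ENSMUSG00000022548.15), a secreted lipocalin, went from 11.9 ± 4.02 to 25.3 ± 3.97 CPM (SD, n = 4), log2FC 1.11 (edgeR adjusted p = 0.00998). The vessel-associated collagen gene Col15a1 had log2FC -0.68 and the monooxygenase gene Fmo2 had 0.97, with edgeR adjusted p of 0.151 and 0.101. The list's median was 0.10. Of 30 general fibroblast genes, 25 were tested, 11 with a log2FC above 0 and 14 below, and the median was -0.02. S100a4, a calcium-binding protein gene also read in leukocytes, alone rose (log2FC 1.16, edgeR adjusted p = 0.000453). Serping1, the complement C1 inhibitor gene, and Cygb, the cytoglobin gene, had log2FC values of 0.58 and 0.37 (edgeR adjusted p of 0.0652 and 0.109). Of the list's collagen genes, Col1a1 had -0.15, Col1a2 -0.61, Col3a1 -0.59 and Col14a1 0.47 (edgeR adjusted p of 0.913, 0.318, 0.423 and 0.605). Pdgfrb, given below, is also of this list and had -0.67. By qPCR, the paper reports Col1a1 and Col3a1 as higher in CAC BAT. The summed level of the fibroblast list was 2080 to 2287 CPM in CTR and 1944 to 2378 CPM in CAC. Its most abundant gene, Sparc, had 905 to 1004 CPM in CTR and 773 to 953 CPM in CAC, so the sum rests largely on 1 gene.

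The relatives of each member were counted in the same way. Of the PDGF ligands and other receptors, 4 of 6 were tested and none passed. Pdgfrb, the receptor of mural cells and fibroblasts, had 8.12 ± 1.10 CPM in CTR and 5.02 ± 1.93 CPM in CAC (mean ± SD, n = 4), and its ligand gene Pdgfd had 5.70 ± 0.84 and 2.75 ± 0.99 CPM. Their log2FC values were -0.67 and -1.03 (edgeR adjusted p of 0.286 and 0.134). In both genes the CAC libraries all lay below the CTR libraries, a separation found downwards in 3.4% of all genes tested. That of Pdgfb was -0.05.

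Of 23 other genes of the Ly6 and uPAR domain family, 4 were tested and none passed. Gpihbp1, which carries lipoprotein lipase across the capillary wall, had 64.3 ± 5.98 CPM in CTR and 88.0 ± 5.57 CPM in CAC (mean ± SD, n = 4), log2FC 0.45 (edgeR adjusted p = 0.0566). Ly6e had 82.2 ± 9.04 and 110.5 ± 4.89 CPM, log2FC 0.42 (edgeR adjusted p = 0.0707). Neither gene's groups overlapped, CAC being the higher, a separation found upwards in 3.64% of all genes tested. Cd59a, an inhibitor of the complement pore, had log2FC -0.17. The summed level of the 23 genes was 305 to 320 CPM in CTR and 349 to 366 CPM in CAC. This sum comes mostly from the 4 tested genes and follows Gpihbp1 and Ly6e, so it adds no separate result.

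No gene passed among the relatives of the remaining members. Of the dipeptidyl and prolyl peptidase genes 5 were tested, with Prep at log2FC -0.58, Dpp7 at 0.40 and Dpp3 at -0.20. Of the gelsolin family and actin severing genes 6 were tested, with Capg at 0.71, Svil at -0.21 and Dstn at 0.09. Of the C-type lectins near Cd248 and Clec3b, 2 were tested, Thbd at 0.13 and Cd93 at -0.01. Of the CD34 sialomucins and the CRISP family 3 were tested, Podxl at 0.18, Emcn at -0.10 and Crispld2 at -0.00.

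**Figure D4:**
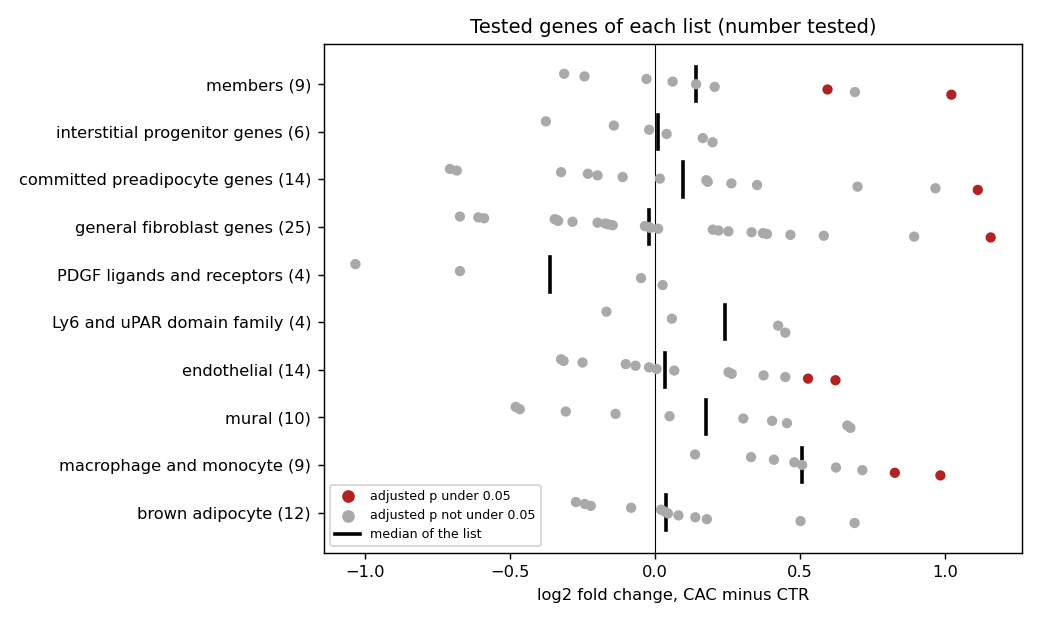
Log2 fold change of CAC minus CTR (horizontal axis) of each tested gene in the member list and in 9 other lists (rows, with the number tested). Red points passed an edgeR adjusted p of 0.05, grey points did not, and the black bar is the median. The interstitial progenitor genes centre near 0, and the macrophage and monocyte genes all lie above it.

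Since Ly6a, Ly6c1 and Cd34 are also read in endothelium, 18 endothelial genes were set beside them. Of these, 14 were tested, 8 with a log2FC above 0 and 6 below, with a median of 0.04. Flt1, a receptor for vascular endothelial growth factor, rose from 52.4 ± 2.80 to 75.3 ± 1.86 CPM (SD, n = 4), log2FC 0.53 (edgeR adjusted p = 0.0166). Esam, an adhesion molecule of endothelial junctions, rose from 39.4 ± 1.42 to 60.9 ± 11.9 CPM, log2FC 0.62 (edgeR adjusted p = 0.0201). The junctional cadherin gene Cdh5 and the receptor gene Kdr had values of -0.32 in both cases and did not pass. Gpihbp1, given above, and Aqp1, at log2FC 0.45 and 0.37, did not pass either (edgeR adjusted p of 0.0566 and 0.155). Of the 14 genes, 4 had an unadjusted edgeR p under 0.05 with a higher level and 1 with a lower level. Of all genes tested, 7.01% and 5.93% did so. In 3 of the 14 the CAC libraries all lay above the CTR libraries, as in 3.64% of all genes tested. The summed endothelial level was 1743, 1737, 1776 and 1733 CPM in CTR and 2174, 1940, 1696 and 1636 CPM in CAC. This sum overlapped between the groups (exact two-sided permutation p = 0.429). Its most abundant gene, Egfl7, a secreted protein gene of endothelium, had 905 to 975 CPM in CTR and 763 to 1175 CPM in CAC. Without Egfl7, the other 17 genes summed to 758 to 851 CPM in CTR and 859 to 1007 CPM in CAC, which do not overlap. Without the water channel gene Aqp1 as well, 16 genes summed to 488 to 555 and 515 to 608 CPM, which overlap. Both reduced sums were chosen after the values were seen and were given no test. The part of endothelium in the levels of the members was not tested.

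Leukocyte genes were set beside the same members. Of 12 macrophage and monocyte genes, 9 were tested, all had a log2FC above 0, and the median was 0.51. C1qa and C1qb, subunits of complement C1q, rose by log2FC values of 0.83 and 0.98 (edgeR adjusted p of 0.00103 and 0.00137), and Csf1r stood at 0.48 (adjusted p = 0.0778). The summed level of this list was 243, 237, 218 and 239 CPM in CTR and 339, 297, 418 and 366 CPM in CAC. It was higher in CAC, as Ly6a and Ly6c1 were. Within CAC the sum and Ly6a were highest in replicate 3, while Ly6c1 was highest in replicate 2, where the sum was lowest. Of 11 neutrophil genes, 4 were tested and 3 rose, S100a9, S100a8 and Retnlg, with log2FC values of 5.45, 5.57 and 3.40 (edgeR adjusted p of 0.000182, 0.00515 and 0.0155). Of 11 T cell genes, cells in which Thy1 is also read, none passed the low-count filter. Their summed level was 3.32 to 6.92 CPM in CTR and 5.41 to 9.57 CPM in CAC, and Cd3g was at 0 in every library. The part of leukocytes in the levels of Ly6a and Ly6c1 was not tested.

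The remaining cell types gave no call. Of 10 mural genes, all were tested, with a median log2FC of 0.18 and with Kcnj8 at -0.47, Cnn1 at 0.67 and Myh11 at 0.66. The 12 brown adipocyte genes had a median of 0.04, with Plin1 at -0.27, Cox8b at -0.22 and Ppara at 0.50. The 10 skeletal muscle genes all had a log2FC above 0, with a median of 1.01. Pvalb stood at 1.05, Myh4 at 1.30 and Atp2a1 at 1.20 (edgeR adjusted p of 0.165, 0.21 and 0.28). Of the 10, 6 had an unadjusted edgeR p under 0.05, where 7.01% of all genes tested did so with a higher level. In 2 the CAC libraries all lay above the CTR libraries, as in 3.64% of all genes tested. Of 8 Schwann cell genes 4 were tested, with Mbp at 0.21 and Pmp22 at -0.13. None of 7 mesothelial genes was tested, and Msln and Wt1 were at 0 in every library.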

How the data were processed

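Total RNA from BAT, 1 library per mouse for 4 CTR and 4 CAC mice, was sequenced by the NEGEDIA Digital mRNA-seq service, single-end with 75 cycles. Per the labels and the submitters' processing notes, the authors checked reads with FastQC 0.11.9, aligned them to mm10 with HISAT2 2.2.1 and counted them with featureCounts with multi-mapping reads. The strand setting is not given in the sources used here. The deposited table holds expected counts for 56953 genes without normalization, since 25.1% to 28.4% of nonzero values per library are not whole. A further deposited table holds a signal, counts that the authors divided by DESeq2 size factors, used only for an alternative. Multi-mapping reads can blur near copies such as the Ly6 genes. Of the gene IDs, 91.4% matched GENCODE M21 (GRCm38) without the version and 0.0615% with it, so positions were matched without the version.

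The deposited counts were rounded and fitted with edgeR 4.0.16 in R 4.3.3 (filterByExpr, TMM, robust quasi-likelihood, no covariate) over 9876 genes, with Benjamini-Hochberg adjustment and a threshold of 0.05. The study used DESeq2. Single values were compared by exact two-sided permutation over 70 assignments. The log2 ratio of Ly6 genes used counts plus 0.5, and correlations used log2 CPM with a prior count of 2. Sequences, positions and 75-base words come from GENCODE M21. In simulated data on 9611 genes for this comparison, 76 of 99 genes changed by a log2 of 1, 99 of 100 changed by 2 and 10 of 9412 unchanged genes were called. Depth was 1823167 to 4827956 counts per library.

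The members and lists were chosen with earlier results of these data known. Genes named are all members, the 3 genes of smallest p in each list, list genes that passed the threshold, and the 3 genes most like Pdgfra. Not every gene this rule names is reported here. Ly6c2, Ucp1, Egfl7, Aqp1, Cdh5, Kdr, Cd3g, Msln, Wt1, Hba-a1, Ddx3y and Xist were named outside this rule, after their values were seen. The same holds for Sparc, Col1a1, Col1a2, Col3a1 and Col14a1. Alternatives were DESeq2 1.42.0, other normalizations, filters and thresholds, limma-trend (limma 3.58.1) on log2 of the signal plus 1, the replicate number as a block and each library left out. The sum of Ly6c1 and Ly6c2 and the endothelial sums without Egfl7 and without Egfl7 and Aqp1 were added after seeing the data. Software for tables and figures was Python 3.11.15, pandas 2.3.3, numpy 2.4.6, scipy 1.17.1 and matplotlib 3.10.9. Protein measurements were not analysed here.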

Additional observations from a re-analysis of the deposited data

Results flagged for a closer look

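In groups of 4 libraries, a library was singled out where its gap to the nearest other library divided by the group's range exceeded Dixon's 95% critical value, which chance does in about 1 in 20 groups. Of 56 groups examined, 6 were singled out, where 2.8 are expected by chance. Ly6a in CTR replicate 1 was 30.2 CPM, below the 39.9 to 41.5 CPM of the other CTR libraries. Clec3b in CAC replicate 1 was 21.1 CPM, below the 25.8 to 26.6 CPM of the other CAC libraries. The summed level of the CD34 sialomucin and CRISP family genes was low in replicate 4 of both groups, at 58.6 CPM in CTR (others 73.4 to 76.4) and 60.3 CPM in CAC (others 76.6 to 78.9). The summed brown adipocyte genes were high in CTR replicate 4, at 18477.2 CPM (others 16417.5 to 16704). The summed Schwann cell genes were high in CAC replicate 1, at 441.6 CPM (others 291.4 to 304.4).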

How the results depend on the processing

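Ly6a passed the threshold in every alternative run, with log2 fold changes of 0.90 to 1.09 over the 8 fits without 1 library and edgeR adjusted p up to 0.00276. Ly6c1 ranged from 0.53 to 0.64 in these fits and lost its call in 1, without CTR replicate 1. Cd34 ranged from 0.55 to 0.82 and passed without CAC replicate 1 or 4 (adjusted p of 0.0230 and 0.0278), and with no filter on low counts (0.66, adjusted p = 0.00404). The number of members called thus lay between 1 and 3. Without 1 library, Clec3b ranged from -0.061 to 0.04, Thy1 from -0.14 to 0.13 and Pdgfra from -0.036 to 0.41, so their sign changed in some of these fits, as did that of Pdgfra in limma on the deposited signal (-0.054). Pi16 ranged from 0.043 to 0.22, Gsn from -0.34 to -0.15 and Cd248 from -0.45 to -0.12. The causes were not tested. Of all genes, 92 were called, 351 with no filter, 183 at an adjusted p of 0.1, 1278 at an unadjusted p of 0.05, and 42 to 135 without 1 library, lowest without CTR replicate 1 and 60 without CAC replicate 3. In the other lists 9 genes were called, 19 with no filter and 6 to 11 without 1 library. Libraries of the same replicate number correlated at -0.0231 to 0.0355 after the group means were removed, so the numbers were not taken as pairs. With the replicate number as a block, 140 genes and 15 list genes were called, Ly6a stood at 1.01 and Ly6c1 at 0.60, and no member's call changed. Among the members, Dpp4 and Pdgfra had the fewest counts, 13 and 49 in CTR and 18 and 43 in CAC. For Pdgfra the coefficient of variation in CAC, 53.2%, was also above the 30.5% from counting.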
